A study of Homo sapiens with 2 samples.

Results

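The genes described here are 7 direct target genes of the YAP/TEAD transcription complex, CYR61, CTGF, ANKRD1, AMOTL2, AXL, LATS2 and AJUBA, and 3 genes of the complex itself, YAP1, WWTR1 and TEAD1. They were chosen by symbol as a readout of the kind that cell density is known to move. These are 10 of the 49670 genes listed in either library. All 10 had a mean level of at least 1 FPKM, as did 11222 genes in all. FPKM gives the abundance of an RNA in sequenced fragments, corrected for transcript length and for the size of the library.

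RNA-seq was carried out on MDA-MB-231 cells, an established human line of triple-negative breast cancer. One library came from cells with stable knockdown of the RNA binding protein RBMS1 and 1 library from control cells. Per the study's methods, the knockdown cells were infected with lentivirus carrying a pLKO.1 plasmid with an shRNA against RBMS1, the control carried the empty pLKO.1 vector, and infected cells were selected with puromycin. The stable lines were afterwards kept in puromycin. Both cultures were grown in L-15 medium with serum and without CO2. Which RBMS1 shRNA was used for sequencing, how many cells were plated and how dense the cultures were at harvest are not given in the sources used here. Nor is it said whether the sequenced cells had received IFN-γ, as cells in other experiments of the study did. No replicate stands behind either group, which holds 1 library each, so no p-value was computed and each value describes these 2 libraries. The interval beside a level is the one Cufflinks gives for uncertainty within a library, and it does not cover the spread between cultures.

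YAP (YAP1) and TAZ (WWTR1) are transcriptional coactivators that bind no DNA themselves and act mainly through the TEAD factors. In sparse, spread cells they are largely nuclear and their targets are transcribed, while in dense cultures the Hippo kinases LATS1 and LATS2 phosphorylate them and hold them in the cytoplasm. Because this control acts on the protein, the mRNA of YAP1, WWTR1 or TEAD1 does not measure the activity of the complex, which is read from the targets. The same targets also answer to serum, to substrate stiffness and to actin tension. This is the general scheme, and whether the targets follow density in MDA-MB-231 cells was not tested here.

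TEAD factors bind DNA at the letters GGAATG, or CATTCC on the other strand. Promoter windows of 300 bases from RefSeq (GRCh38.p14) were searched for both, and a window holding the start of the gene's most abundant transcript was found for 8 of the 10 genes. No entry matched CYR61 and TEAD1. The sequences below are the places where the letters occur in CTGF and ANKRD1, the targets with the most of them, and in AMOTL2 and YAP1. They are written 5′ to 3′ on the strand of the gene, with the motif in capitals and the position counted from the RefSeq start.
CTGF, chr6:131951524-131951553, minus strand, position −169: ttttcagacggaGGAATGctgagtgtcaag
CTGF, chr6:131951459-131951488, minus strand, positions −104 and −95: ggaaggtggggaGGAATGcgaGGAATGtcc
ANKRD1, chr10:90921290-90921319, minus strand, position −220: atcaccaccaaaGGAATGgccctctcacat
ANKRD1, chr10:90921198-90921227, minus strand, position −128: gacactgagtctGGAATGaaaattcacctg
AMOTL2, chr3:134374499-134374528, minus strand, position −69: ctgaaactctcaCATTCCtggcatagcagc
YAP1, chr11:102110273-102110302, plus strand, position −162: cgggagtgtgcaGGAATGtagcaacttgca

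The CTGF window held 3 copies and the ANKRD1 window 2, while AMOTL2, LATS2 and YAP1 held 1 each and AXL, AJUBA and WWTR1 held 0. Of 35116 RefSeq promoter windows, 14% held at least 1 copy, 1.37% at least 2 and 0.128% at least 3. The RefSeq start is not always that of the transcript measured here. Counted from the start of the most abundant transcript, the AMOTL2 copy lay at 78 and the second ANKRD1 copy at 61, both within the transcribed region, while the first ANKRD1 copy lay at −31 and those of CTGF and YAP1 at −168, −103, −94 and −176. A match describes the letters in a short window and is not evidence of binding, and an absent match says nothing of sites elsewhere.

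The RBMS1 transcript itself served to check the labels. Its level was 3.76 FPKM (3.12 to 5.39) in the RBMS1 knockdown library and 24.1 FPKM (21.7 to 27.7) in the control library, so the knockdown library held 15.6% of the control level. The cell line markers went with the label in both libraries. VIM (496 and 563 FPKM), CD44 (154 and 204 FPKM), FN1 (31.3 and 19.7 FPKM) and EGFR (26.1 and 33.0 FPKM, knockdown first) were present, and ESR1, PGR and CDH1 were under 0.1 FPKM. EPCAM, also listed among the low markers, was at 1.93 and 3.66 FPKM. Fibroblast markers summed to 0.913 FPKM in the knockdown and 2.33 FPKM in the control library with 0 of 4 at a mean of 1 FPKM. Leukocyte markers summed to 0.115 and 0.0170 FPKM. Coverage per FPKM was 1.09 times as high in the knockdown library as in the control library.

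The 7 targets did not move in one direction. Between the knockdown and the control library CTGF was higher, CYR61 was lower, ANKRD1 was slightly higher, and the others were close to their control levels. Summed over the 7, the targets held 708 FPKM in the knockdown and 706 FPKM in the control library, 100.3% of control. That sum is carried by CYR61 and AXL, and without CYR61 the sums were 462 and 398 FPKM, 116% of control. The plot of levels in both libraries shows each gene with its interval.

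**Figure D1:**
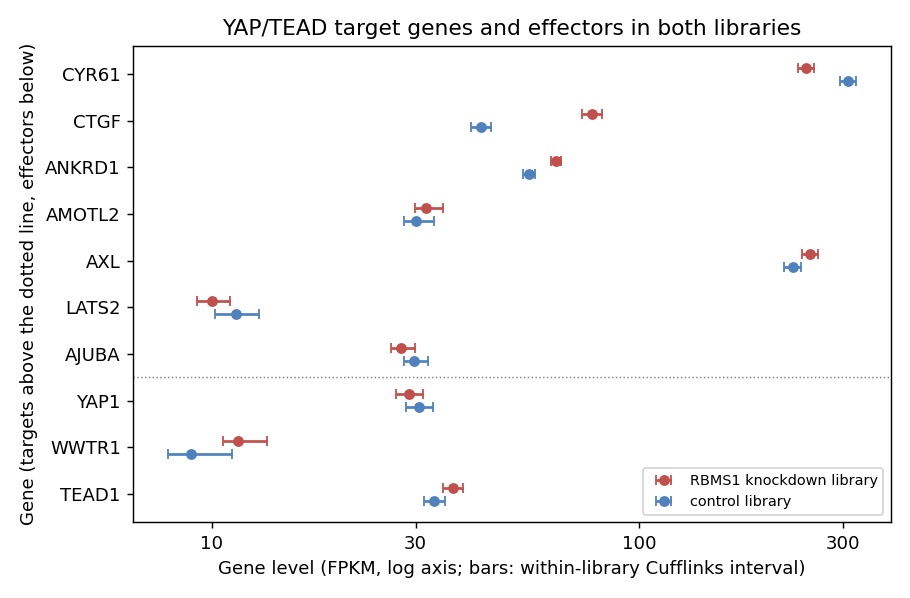
Level of each gene in FPKM on a log axis, with the RBMS1 knockdown library in red and the control library in blue and bars for the interval Cufflinks gives within a library. CYR61 sat lower and CTGF and ANKRD1 higher in the knockdown library with intervals apart, AXL was apart by less than 1 FPKM, and the other 6 pairs of bars overlapped.

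CYR61 and CTGF (CCN1 and CCN2) encode secreted matricellular proteins and are the targets most often used to read YAP/TEAD activity. CYR61 (ENSG00000142871, chr1:85580761-85583962, plus strand) was at 246 FPKM (235 to 257) in the knockdown library. In the control library it was at 309 FPKM (295 to 322). The knockdown library thus held 79.7% of the control level, a log2 ratio of −0.33, where the log2 ratio is knockdown over control with 1 FPKM added to both. The intervals did not overlap, and setting their nearest and farthest ends against each other gave bounds from −0.45 to −0.20.

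CTGF (ENSG00000118523, chr6:131948176-131951373, minus strand) was at 77.7 FPKM (73.4 to 81.9) in the knockdown and 42.7 FPKM (40.3 to 45.1) in the control library. It was the target with the largest ratio, 182% of control, a log2 ratio of 0.85 with bounds from 0.69 to 1.0. CTGF ranked 404 from the highest ratio of 11222 genes, with 3.6% of genes at or above it, while 14% of genes were at or below the ratio of CYR61. The FPKM ratio of CYR61 to CTGF was 3.17 in the knockdown and 7.23 in the control library. The 2 secreted targets thus differed between the libraries in opposite directions, each with intervals apart.

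ANKRD1, an ankyrin repeat protein of muscle nuclei and sarcomeres that is also a standard YAP target in epithelial cells, came from chr10:90912096-90921276 on the minus strand (ENSG00000148677). It was at 64.0 FPKM (62.1 to 65.8) in the knockdown library and at 55.2 FPKM (53.4 to 57.0) in the control library, 116% of control. The log2 ratio was 0.21, with bounds from 0.12 to 0.30 and intervals apart. All of its level stood on 1 transcript, ENST00000371697.

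AXL, a receptor tyrosine kinase for GAS6, was the most abundant target beside CYR61 (ENSG00000167601, chr19:41219203-41261766, plus strand). Its level was 251 FPKM (240 to 263) in the knockdown and 229 FPKM (218 to 239) in the control library, a log2 ratio of 0.13. The intervals missed each other by less than 1 FPKM, and they overlapped under all 3 other scalings of the libraries. Its long transcript ENST00000301178 made up 74.6% of the level in the knockdown and 73.7% in the control library.

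AMOTL2 and AJUBA are targets that act back on the pathway, AMOTL2 as an angiomotin that binds YAP and AJUBA as a LIM protein that inhibits the LATS kinases. AMOTL2 (ENSG00000114019, chr3:134355874-134375479, minus strand) was at 31.8 FPKM (29.8 to 34.7) in the knockdown and 30.1 FPKM (28.2 to 33.2) in the control library, a log2 ratio of 0.08. AJUBA (ENSG00000129474, chr14:22971174-22982642, minus strand) was at 27.7 FPKM (26.3 to 29.9) in the knockdown and 29.7 FPKM (28.2 to 32.0) in the control library, a log2 ratio of −0.10. For both genes the intervals overlapped. Their bounds ran from −0.15 to 0.29 for AMOTL2 and from −0.28 to 0.08 for AJUBA.

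LATS2 is both a target and the kinase that phosphorylates YAP and TAZ (ENSG00000150457, chr13:20973032-21061547, minus strand). Its level was 10.0 FPKM (9.25 to 11.01) in the knockdown and 11.4 FPKM (10.2 to 12.9) in the control library, a log2 ratio of −0.17 with overlapping intervals. The direction depended on which transcripts were summed. The reference transcript ENST00000382592 alone was at 8.40 FPKM in the knockdown and 6.58 FPKM in the control library, and the rest of the control level stood on 2 short assembled transcripts of 2.86 and 1.99 FPKM. With transcripts weighted by their length LATS2 had 9.99 FPKM in the knockdown and 9.26 FPKM in the control library (log2 ratio 0.10), and with the reference transcript alone the ratio was 0.31 with intervals apart. No direction is given for LATS2 here.

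The 3 genes of the complex had overlapping intervals as summed here, and those of YAP1 overlapped in all 10 settings. YAP1 (ENSG00000137693, chr11:102110461-102233423, plus strand) was at 28.96 FPKM (27.05 to 31.2) in the knockdown and 30.5 FPKM (28.5 to 32.9) in the control library, a log2 ratio of −0.07 with bounds from −0.27 to 0.13. Its level was divided over 3 transcripts, of which ENST00000282441 was at 16.6 and 18.1 FPKM, ENST00000345877 at 7.54 and 6.54 FPKM, and ENST00000537274 at 4.87 and 5.88 FPKM, knockdown first. The order of the 3 transcripts was the same in both libraries.

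WWTR1, which encodes TAZ (ENSG00000018408, chr3:149517235-149736714, minus strand), was at 11.5 FPKM (10.6 to 13.5) in the knockdown and 8.93 FPKM (7.89 to 11.1) in the control library, a log2 ratio of 0.33. Relative to YAP1, its level was 39.8% in the knockdown and 29.3% in the control library. Assembled transcripts made up much of the WWTR1 level. The reference transcript ENST00000465804 was at 6.83 FPKM in the knockdown and 2.75 FPKM in the control library, and counting it alone gave a log2 ratio of 1.06. With transcripts weighted by length the ratio was 0.35. The intervals of WWTR1 did not overlap there, nor on reference transcripts or the dominant transcript alone.

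TEAD1, a DNA-binding TEAD factor (ENSG00000187079, chr11:12674591-12944483, plus strand), was at 36.7 FPKM (34.8 to 38.8) in the knockdown and 33.1 FPKM (31.3 to 35.1) in the control library, a log2 ratio of 0.14. Its bounds ran from −0.01 to 0.30, and its intervals were apart with the dominant transcript alone and with the join by identifier alone. The 4 TEAD genes together summed to 63.3 FPKM in the knockdown and 63.2 FPKM in the control library, of which TEAD1 made up 57.9% and 52.3%.

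The level of CYR61 rested on how transcripts were joined to genes. All of it stood on ENST00000617517, an Ensembl transcript of 5 exons and 2288 bases that is absent from GENCODE release 29, and a join by transcript identifier alone lists CYR61 at 0 in both libraries. The transcript was given to CYR61 because it shares 4 introns with the annotated gene on the same strand. TEAD1 also held such a transcript, ENST00000361985, at 11.3 FPKM in the knockdown and 10.5 FPKM in the control library. In CTGF, 8.04 FPKM of the knockdown level stood on an assembled transcript, and without it the log2 ratio was 0.69.

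Of the 10 genes, 0 differed by 2-fold or more, where 5.63% of all 11222 genes did, 2.72% with a lower and 2.91% with a higher level in the knockdown library. Intervals were apart for 4 genes, 1 on the lower and 3 on the higher side, and for 24.5% of all genes, 11.3% lower and 13.1% higher. Among the 7305 genes with a mean of at least 5 FPKM, as all 10 have, 3.78% differed by 2-fold and 28% had intervals apart, so the share among the 10 was near the background. The median log2 ratio was 0.08 over the 7 targets, 0.14 over the 3 genes of the complex and 0.02 over all genes. Among all genes the middle 50% of log2 ratios ran from −0.17 to 0.21 and the middle 90% from −0.66 to 0.68. CTGF lay above the second range, CYR61 and WWTR1 lay between both ranges, and the other 7 genes lay within or at the edge of the first.

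**Figure D2:**
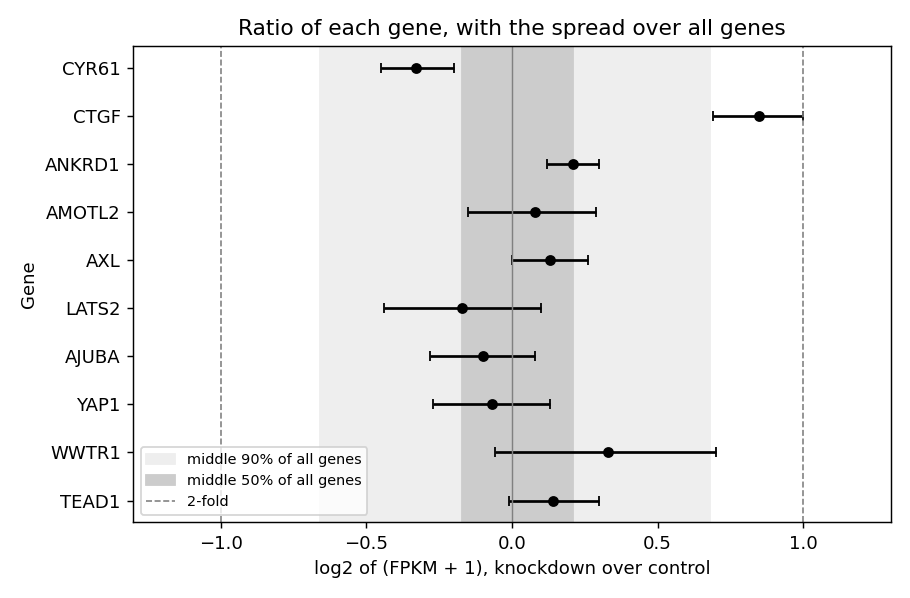
Log2 ratio of FPKM + 1, knockdown over control, for each gene, with bars for the bounds that the within-library intervals give, over the range of all 11222 genes (dark grey the middle 50%, light grey the middle 90%, dashed lines 2-fold). CTGF at 0.85 is the single point outside the light band and CYR61 at −0.33 the lowest of the 10.

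Other targets of YAP and TAZ, from a list that shares no gene with the 10, were as mixed. Of 16 such genes with a mean of at least 1 FPKM, 9 had a lower and 7 a higher level in the knockdown library, with a median log2 ratio of −0.08 against 0.02 over all genes. The list median was 0.02 on reference transcripts alone and 0.11 over the genes with a mean of at least 5 FPKM (0.02 and 0.03 over all genes there), so it gives no direction. Intervals were apart for 2 lower and 5 higher genes, 43.8% of the list, beside 24.5% of all genes and 28% of those with a mean of at least 5 FPKM. IGFBP3, an insulin-like growth factor binding protein, was at 11.7 FPKM (10.2 to 14.2) in the knockdown and 5.29 FPKM (4.20 to 7.31) in the control library, a log2 ratio of 1.02. IGFBP3 was the 1 gene of this list at 2-fold, beside 5.63% of all genes. Its ratio was −0.08 when its dominant transcript alone was counted. On reference transcripts alone 1 lower gene, CCDC80 (−1.28), and 2 higher genes, ASAP1 (1.74) and PTPN14 (1.32), were past 2-fold, beside 10% of all genes. GADD45A, a stress response gene, had the lowest ratio as summed here, −0.37, with 21.4 FPKM in the knockdown and 27.9 FPKM in the control library. MYOF, which encodes the membrane protein myoferlin, at 70.0 and 52.3 FPKM (0.41), and F3, tissue factor, at 153 and 195 FPKM (−0.35), are named because of their values. PTPN14 lay further out than MYOF, at 32.8 FPKM in the knockdown and 21.2 FPKM in the control library (0.60). Its ratio was 0.20 with transcripts weighted by length.

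The kinases and upstream regulators of the Hippo pathway did not share a direction either. Of 36 genes 31 passed 1 FPKM, 17 with a lower and 14 with a higher level in the knockdown library. The median log2 ratio was −0.03, and 0 genes were at 2-fold, beside 5.63% of all genes. On reference transcripts alone 2 of 30 were, both lower, where 10% of all genes were. Intervals were apart for 4 lower and 5 higher genes, 29% of the list. That share was near the 24.5% of all genes and the 28% of those with a mean of at least 5 FPKM. STK3 and STK4, the MST kinases that activate the LATS kinases, had log2 ratios of 0.04 and 0.19, and that of STK3 became 0.96 on its reference transcripts alone. LATS1 was at 5.75 FPKM (5.39 to 6.36) in the knockdown and 4.46 FPKM (3.80 to 5.37) in the control library, a log2 ratio of 0.31. On its reference transcripts alone LATS1 was listed at 0 in the knockdown and at 3.02 FPKM in the control library, so no direction is given. WWC1, the scaffold KIBRA, had the lowest ratio, with 11.9 FPKM (10.7 to 16.7) against 22.8 FPKM (21.0 to 28.4) in the control library, a log2 ratio of −0.89. FAT4, an atypical cadherin, had the highest, 0.49, from levels of 9.66 and 6.57 FPKM. NF2, an upstream regulator named because of its low level, was at 1.53 FPKM in the knockdown and 1.81 FPKM in the control library. Its intervals overlapped.

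Of the other TEAD genes, TEAD4 was lower in the knockdown library, at 5.57 FPKM (4.81 to 7.03) against 8.59 FPKM (7.61 to 10.3) in the control, a log2 ratio of −0.55 with intervals apart. TEAD2 was at 8.69 FPKM in the knockdown and 7.17 FPKM in the control library and TEAD3 at 12.4 and 14.4 FPKM, and the ratio of both turned sign on reference transcripts alone. VGLL4, a cofactor that competes with YAP for TEAD, had 6.25 and 6.53 FPKM, a log2 ratio of −0.06, and on reference transcripts alone it was listed at 0 in the knockdown library. The median of the TEAD and VGLL genes past 1 FPKM was −0.06 over 5 genes, and −0.60 over 4 genes on reference transcripts alone. VGLL3, at 1.37 and 0.964 FPKM, had the highest ratio of this list, 0.27 (−0.20 on reference transcripts alone), and VGLL1 and VGLL2 were listed at 0 in both libraries.

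CYR61, CTGF and ANKRD1 also answer to SRF and its MRTF cofactors, which read actin tension, and a list of cytoskeletal SRF/MRTF targets was set beside them. Of 24 genes past 1 FPKM, 10 had a lower and 14 a higher level in the knockdown library, with a median log2 ratio of 0.03. Intervals were apart for 4 lower and 7 higher genes, 45.8% of the list, beside 24.5% of all genes and 28% of those with a mean of at least 5 FPKM. At 2-fold there was 1 gene, TAGLN, beside 5.63% of all genes. On reference transcripts alone there were 2 of 23, both higher, where 10% of all genes were past 2-fold. TAGLN, an actin-binding protein of smooth muscle, had 12.04 FPKM in the knockdown library and was listed at 0 in the control, so no fold is given. The lowest ratio was that of the tropomyosin TPM4, at 176 FPKM in the knockdown and 221 FPKM in the control library, a log2 ratio of −0.33 that became −0.77 on reference transcripts alone. MYL9 and MYL12A, myosin light chains named because of their values, were at 76.1 and 227 FPKM in the knockdown and at 42.3 and 129 FPKM in the control library, log2 ratios of 0.83 and 0.81. The dominant MYL12A transcript by itself held 148 FPKM in the knockdown library, and the control listed it at 0.

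Proliferation genes, which fall when a culture becomes confluent and stops dividing, were examined for the same reason. All 25 passed 1 FPKM, 11 with a lower and 14 with a higher level in the knockdown library. As summed here 0 were at 2-fold, beside 5.63% of all genes. Their log2 ratios ran from −0.49 to 0.39, with a median of 0.04. Intervals were apart for 5 lower and 7 higher genes, 48% of the list, beside the same 24.5% and 28%. TYMS, thymidylate synthase, had the highest ratio, with 97.7 FPKM in the knockdown and 74.1 FPKM in the control library. CCNE1, cyclin E1, had the lowest, with 4.73 and 7.08 FPKM and overlapping intervals, and its ratio was −1.47 on reference transcripts alone. E2F1, a transcription factor of S phase entry named because of its values, was at 23.7 and 26.5 FPKM, but without its assembled transcripts it was listed at 0 in the knockdown library. On reference transcripts alone these 2 of the 25 genes were thus past 2-fold, both lower, where 10% of all genes were, and the median of the list was 0.07. MKI67, which encodes the Ki-67 antigen of cycling cells and is named because of its use as a marker, was at 67.4 and 60.6 FPKM.

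Whether the density of the cultures differed was not tested, since neither cell counts nor confluence accompany the values. What the libraries hold is a CTGF level 182% of control beside a CYR61 level 79.7% of control, with ANKRD1, AMOTL2, AXL and AJUBA from 93.3% to 116%. LATS2 was at 87.9% of control as summed here, at 108% with transcripts weighted by length and at 128% on its reference transcript alone. As summed here, none of the 10 genes differed by 2-fold, where 5.63% of all genes did. On reference transcripts alone WWTR1 did, where 10% of all genes were past 2-fold. A shift of all targets in one direction was not seen in these 2 libraries. Since RBMS1 knockdown and any other difference between the 2 cultures coincide, the part of each in the CTGF and CYR61 values cannot be told apart.

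The plot of each gene's ratio under every way of computing it shows how far the values depend on the computation. All 10 settings use the same 2 libraries, and a change of pseudocount cannot turn a sign. A gene on 1 annotated transcript, such as ANKRD1, also keeps its value under every way of summing transcripts. The counts of settings are therefore no measure of repeatability. CTGF had a higher level in 10 of 10 settings, with log2 ratios from 0.69 to 0.86. CYR61 had a lower level in 9 of 10, down to −0.36, and was listed at 0 in the setting that joins by identifier alone. ANKRD1, AMOTL2, AXL, WWTR1 and TEAD1 kept a ratio above 0 and AJUBA and YAP1 a ratio below 0 in all 10 settings, while LATS2 was lower in 7 and higher in 3.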

How the data were processed

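RNA-seq of 1 RBMS1 knockdown and 1 control library of MDA-MB-231 cells was analysed, with groups taken from the labels. For each library the authors deposited Cufflinks output, with FPKM, an interval and the coverage, both for Ensembl transcripts and for transcripts assembled from the reads. The submitters' processing notes name Bowtie2 2.0.6, TopHat2 2.0.9, Cufflinks 2.1.1 and Cuffdiff 2.1.1. The strand of the libraries and the read length are not given in the sources used here. A second deposited table, the authors' comparison of the libraries with FPKM, fold change, p-value and q-value, was not used.

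Gene names and positions came from GENCODE release 29 (GRCh38). The knockdown library listed 246627 transcripts and the control library 250516. A gene's FPKM summed its Ensembl transcripts, Ensembl transcripts absent from release 29 and assembled transcripts, the last 2 kinds given to the gene with which they shared most introns (at least 1) on the same strand. Of the annotated transcripts, 98.1% had the annotated start in both libraries. The intervals of a gene are sums of those of its transcripts, which tends to widen them, and so to make overlap likelier, for genes of several transcripts. The log2 ratio used a pseudocount of 1 FPKM, so it understates the change of low genes. Counts and ranks used genes with a mean of at least 1 FPKM. Depth in reads is unknown, and median coverage per FPKM was 12.4 in the knockdown and 11.4 in the control library. Scripts ran in Python 3.11.15 with numpy 2.4.6 and were tested on simulated data.

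No test between groups was possible. The genes, the lists and the rule for named genes (all 10 genes, RBMS1, the extremes and 2-fold genes of each list, and the TEAD, VGLL4, LATS1, STK3 and STK4 genes) were chosen with earlier results of these data known. The rule on transcripts absent from release 29 was added after CYR61 had been found at 0 without it. Of the 11 alternatives, the join by identifier only and the length-weighted sum were chosen after seeing the data.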

Additional observations from a re-analysis of the deposited data

How the results depend on the processing

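No paired analysis was possible because each group holds 1 library, and for the same reason no library could be left out. The number of all genes at 2-fold was 632 as reported, 252 with a pseudocount of 5 FPKM, 276 with a mean of at least 5 FPKM, 970 when each gene was its dominant transcript and 1050 when assembled transcripts were left out. Of the 10 YAP/TEAD genes 0 were at 2-fold, beside 5.63% of all genes. On reference transcripts alone 1 was, WWTR1, beside 10% of all genes. The dominant transcript alone also gave 1, WWTR1, beside 9.59% of all genes. Intervals were apart for 4 of the 10 and 24.5% of all genes, and with the dominant transcript only for 7 of the 10 and 49.5% of all genes. The TEAD and VGLL median moved from −0.06 to −0.60 without assembled transcripts and to −0.67 with the dominant transcript. IGFBP3 turned from a log2 ratio of 1.02 to −0.08 with the dominant transcript only. The causes were not tested. The 3 other scalings turned the direction of 0 of the 10 genes. Values rest on 1 culture a group. The interval of WWTR1, at a low level and summed over several transcripts, allows a shift of up to 0.38 on the log2 scale either way. That of ANKRD1, which stood on 1 transcript, allows 0.09. The files used here hold no counts, so no floor is given.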
